A study of Mus musculus with 25 samples.

Results

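The ethanol regimen of the group labelled KI_Half was compared with a control diet in the duodenum of male mice that carry an Aldh2 knock-in (named Aldh2KI in the study). The comparison took all 4 libraries labelled KI_Con, from knock-in mice on control diet, and all 6 labelled KI_Half, chosen by these labels and by no measured value; they are 10 of the 25 libraries of the series. The diet of KI_Half mice held 2.5% ethanol, and they were gavaged with ethanol at 2 g/kg on 2 occasions each week. Feeding began at the age of 8 weeks and lasted 8 weeks. For the mice of the study as a whole, tissue was taken 9 h after a last ethanol gavage of 5 g/kg; whether KI_Half mice received that dose is not stated. Both groups carry the knock-in, so the comparison is of diets within that genotype. Whether control mice were gavaged, the hour of the day at which each group was taken, the number of knock-in copies and the strain that carries it were not stated in the labels. C57BL/6N mice without the knock-in, on the same control diet (WT_Con, 4 libraries) and the same ethanol regimen (WT_Half, 7 libraries), are used only at the end. The KI_Half libraries carry the numbers 1, 2, 3, 5, 6 and 7.

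The duodenum meets swallowed ethanol and pancreatic juice first, and its villi are covered by absorptive enterocytes that dividing crypt cells replace without pause. Alcohol dehydrogenases turn ethanol into acetaldehyde, and Aldh2, an enzyme of the mitochondrial matrix, turns acetaldehyde into acetate; a mouse with deficient Aldh2 clears acetaldehyde slowly. When cells lack amino acids or carry damaged mitochondria they slow protein synthesis and make the transcription factor Atf4, which raises genes for amino acid synthesis, amino acid carriers and the enzymes that load transfer RNA (the integrated stress response). Intraepithelial T cells, plasma cells that secrete IgA, and antimicrobial proteins of the epithelium guard the same surface.

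Levels are in CPM (a gene's count as a share of all counts of its library, on the usual scale), adjusted by the trimmed mean of M values (TMM), and are listed for KI_Con 1, 2, 3 and 4 in that order. Changes are log2 fold changes of KI_Half over KI_Con ± standard error (SE), from the quasi-likelihood F test of edgeR with Benjamini-Hochberg adjustment over 16944 genes tested, and a gene is said to have risen or fallen only where its adjusted p was under 0.05. The libraries held 27.3 to 32.7 M (mega) counts in KI_Con and 27.6 to 34.6 M in KI_Half. Of the genes tested, 6420 (37.9%) passed, of which 3388 (20.0%) rose and 3032 (17.9%) fell, while the median change of all genes was 0.00. In 27.4% of the genes the groups did not overlap: every KI_Half library lay above every KI_Con library in 13.5% and below in 13.9%. At this share of changed genes, the counts of a list are read against 20.0% higher and 17.9% lower. Listed genes that the deposited counts do not hold are left out of them. The lists were chosen with earlier results of these data known, so a share above these values is a description and not a test. Most genes named below follow from a rule (given with the processing); Adh1, Areg, Atf4, Cd8a, Chac1, Csf1r, Cybrd1, Ddit3, Des, Ereg, Gml2, Lct, Muc2, Per1, Per2, Reg3b and Trib3 do not, and were chosen after their values were seen. The KI_Half libraries did not depart from the controls to the same extent. The share of genes more than 2-fold away from the control mean was 18.8% in KI_Half 1, 21.2% in KI_Half 2, 24.6% in KI_Half 3, 26% in KI_Half 5, 14.2% in KI_Half 6 and 9.15% in KI_Half 7, against 4.05 to 4.85% in single controls, each set against the mean of the other 3. KI_Half 7 was thus the nearest to the controls.

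Markers of the duodenum were present, and the deposited genes of both the duodenal and the ileal list moved. The 18 genes of the duodenal list summed to 29639 to 40114 CPM in KI_Con and 15383 to 27160 CPM in KI_Half, and 9 fell while 2 rose (4 and 0 without KI_Con 1 and 2). Of 9 genes on the ileal list 6 were in the deposited counts. Fabp6 and Fgf15, markers taken as defining the ileum, were among those absent. The 6 genes summed to 54.8 to 68.96 CPM and then to 94.1 to 189 CPM, and 4 rose while none fell (3 rose). Neither sum overlapped between the groups, and the part of the stretch of gut sampled in the results below was not tested. Pdx1, the transcription factor of duodenum and pancreas, was at 181, 183, 183 and 186 CPM in KI_Con and 102 to 219 CPM (median 147) in KI_Half, and Slc10a2, the bile acid carrier of the ileum, stayed between 0.539 and 2.17 CPM. Other tissue was present unevenly. Pancreatic acinar enzymes (Ctrb1, Cela2a, Cpb1, Cpa1, Prss2 and Pnlip together) summed to 3672 and 1281 CPM in KI_Con 1 and 2, but to 6.27 and 6.08 CPM in KI_Con 3 and 4 and to 4.60 to 9.34 CPM in KI_Half. The whole acinar list of 21 genes, which also holds genes that the gut itself expresses, summed to 2180 to 9365 CPM in KI_Con and 1150 to 1749 CPM in KI_Half. The 3 genes of Brunner glands, the mucous glands under the duodenal epithelium (Muc6, Tff2 and Gkn3), summed to 54.3 to 10913 CPM in KI_Con and 34.4 to 7174 CPM in KI_Half, with no separation of the groups. The fit of these 10 libraries was therefore repeated without KI_Con 1 and 2, which leaves 2 controls. It called 2565 of 16993 genes, 1454 (8.56%) higher and 1111 (6.54%) lower; of the 6420 genes above, 6413 kept their sign and 2540 were still called. Of the genes that passed with all 10 libraries and whose change is given in the text, 22 no longer did: Adh1, Adh4, Aldh1a1, Areg, Arntl, Cdkn1a, Cldn15, Duox2, Duoxa2, Fut2, Gfap, Hspb1, Il33, Itgam, Lct, Lgr5, Mmp13, Mt1, Mt2, Nos2, Pkm and Trpm5. The log2 change became 6.44 for S100a9, 5.14 for Reg3b and 3.66 for Ereg, and moved by less than 1.5-fold for the other genes whose change is given. Genes given by their level only could move more, as the acinar and Brunner gland genes, Cxcr2, Csf3 and Sprr2f did. In 1 edgeR fit of all 25 libraries, which estimates the spread over every group, Adh1, Aldh1a1, Clca1, Olfm4 and Trpm5 did not pass. Counts of a list without KI_Con 1 and 2 are given in brackets beside its main counts. They are read against the 8.56% higher and 6.54% lower of that fit. With only 2 controls, fewer calls need not mean a smaller change.

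**Figure D1:**
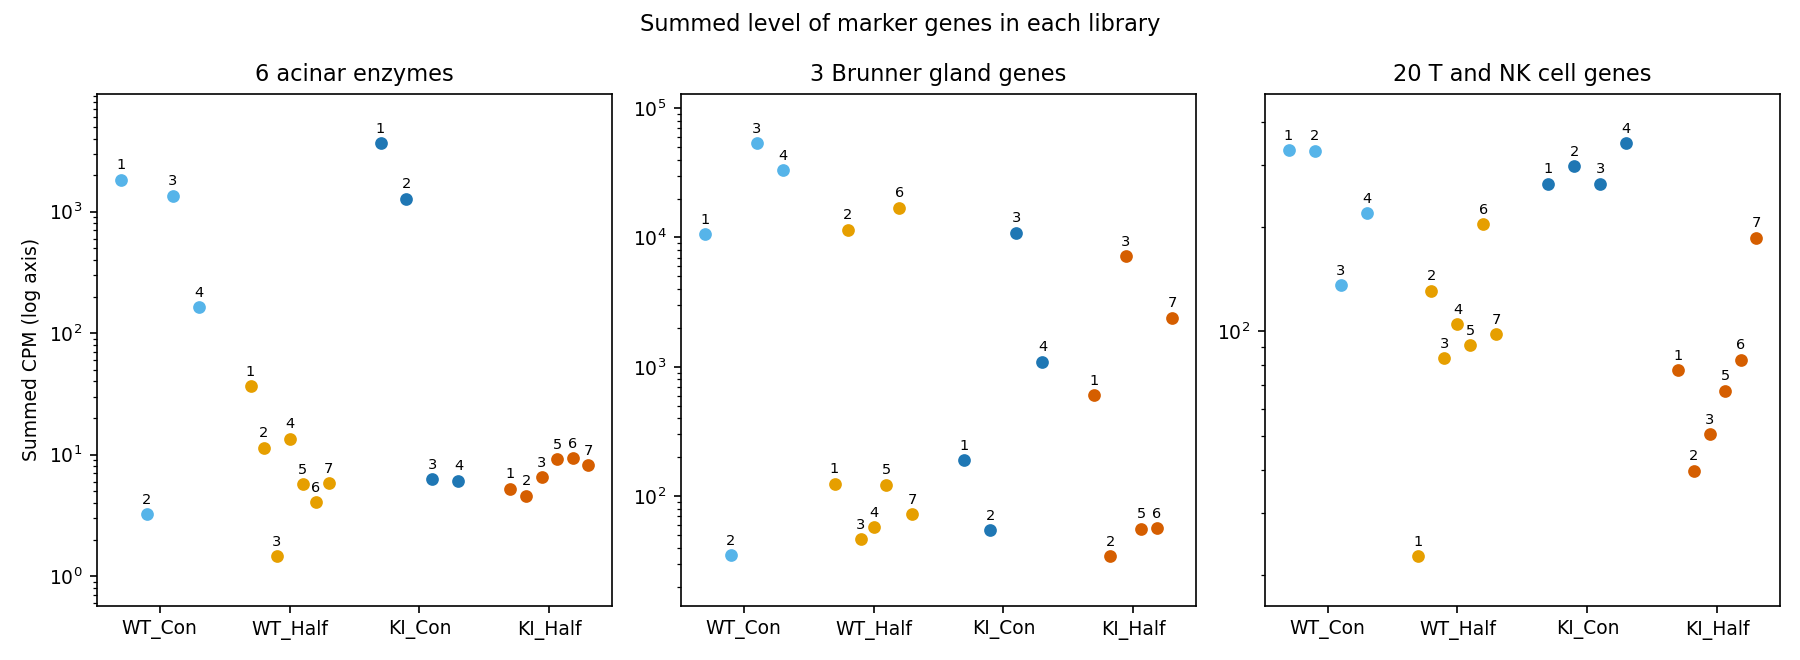
Summed CPM (log axis) of 6 pancreatic acinar enzymes, 3 Brunner gland genes and the 20 genes of the T and NK cell list in each library (points, labelled by replicate number) of the 4 groups used. KI_Con 1 and 2 stand at 3672 and 1281 CPM of acinar enzymes, KI_Con 3 and 4 and all KI_Half libraries under 10 CPM.

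Aldh2 itself, the targeted gene, was expressed in every library. It was at 462, 417, 424 and 461 CPM in KI_Con and at 314 to 462 CPM (median 346) in KI_Half, and the groups overlapped, with a log2 change of -0.27 ± 0.12, adjusted p = 0.0918; without KI_Half 7, which stood level with the controls, it was -0.35 (adjusted p = 0.00732). Gene counts do not show the knock-in allele, so they do not check the genotype. The genes of ethanol oxidation and acetate activation were lower or did not pass: 5 of 11 members fell, none rose, and the median change was -0.71 (2 fell without KI_Con 1 and 2). Without KI_Half 7, 9 of them fell. Adh6a, a mouse alcohol dehydrogenase, was at 1561, 1641, 1289 and 1381 CPM in the controls and 497 to 961 CPM (median 697) in KI_Half. Its ranges did not overlap, and it fell by log2 -1.05 ± 0.17, adjusted p = 0.00112. Adh1, the main ethanol-oxidising dehydrogenase, was at 993, 837, 866 and 774 CPM against 434 to 862 CPM (median 464), where only KI_Half 7 reached into the control range (log2 change -0.71 ± 0.19, adjusted p = 0.0145). Cat, the catalase of peroxisomes, was at 282, 351, 258 and 253 CPM in KI_Con and 111 to 179 CPM (median 125) in KI_Half, with no overlap (log2 change -1.12 ± 0.15, adjusted p = 5.20e-04). Adh4, a dehydrogenase that also takes retinol, was at 28.00, 33.6, 23.7 and 19.9 CPM against 2.80 to 15.8 CPM (median 3.35) and fell most, by -2.21 ± 0.47, adjusted p = 0.00442, or -2.87 without KI_Half 7, its highest KI_Half library.

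Among the other aldehyde dehydrogenases, 8 of 17 fell and none rose (median -0.48; 5 fell without KI_Con 1 and 2). Aldh4a1, a mitochondrial enzyme of proline breakdown, was at 227, 149.9, 151 and 204 CPM in KI_Con and 25.3 to 76.3 CPM (median 51.9) in KI_Half, without overlap (log2 change -1.83 ± 0.25, adjusted p = 5.85e-04). Aldh1a1, which makes retinoic acid and also takes acetaldehyde, was at 204, 187, 149.6 and 114 CPM against 65.2 to 117 CPM (median 89.4); its lowest control lay within the KI_Half range, and it fell by log2 -0.85 ± 0.18, adjusted p = 0.00456. Both lists lay above the 17.9% of all genes that fell.

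Genes that make amino acids and load them onto transfer RNA rose together. Of the genes of the integrated stress response, 15 of 25 rose and 1 fell (median log2 change 1.71; 12 rose and 0 fell without KI_Con 1 and 2). In the list of serine, glycine and one-carbon synthesis, which shares members with it, 9 of 13 rose and 1 fell (median 1.79; 8 and 0). Of the cytosolic transfer RNA synthetases and their kin, 18 of 19 rose and none fell (median 0.98; 17 and 0). Promoters of 3 of the risen genes are shown because each holds the composite letters TGATGNAA, known as a binding element shared by C/EBP proteins and Atf4. The sequences are the 250 bases before the RefSeq transcription start on GRCm38.p6, written 5′ to 3′ on the gene's strand, with a match on either strand in capitals.
Asns, chr6:7693210-7693459, minus strand: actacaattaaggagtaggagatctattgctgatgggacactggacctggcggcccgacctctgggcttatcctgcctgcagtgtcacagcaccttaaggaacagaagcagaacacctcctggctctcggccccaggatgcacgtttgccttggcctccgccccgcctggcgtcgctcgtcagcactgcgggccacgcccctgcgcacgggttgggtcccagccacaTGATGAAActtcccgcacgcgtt
Slc7a11, chr3:50443614-50443863, minus strand: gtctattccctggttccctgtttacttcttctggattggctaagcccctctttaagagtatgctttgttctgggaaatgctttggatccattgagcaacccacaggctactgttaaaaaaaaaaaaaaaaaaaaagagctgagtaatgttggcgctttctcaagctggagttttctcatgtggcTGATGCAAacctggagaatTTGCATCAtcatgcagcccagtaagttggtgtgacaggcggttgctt
Gars, chr6:55037751-55038000, plus strand: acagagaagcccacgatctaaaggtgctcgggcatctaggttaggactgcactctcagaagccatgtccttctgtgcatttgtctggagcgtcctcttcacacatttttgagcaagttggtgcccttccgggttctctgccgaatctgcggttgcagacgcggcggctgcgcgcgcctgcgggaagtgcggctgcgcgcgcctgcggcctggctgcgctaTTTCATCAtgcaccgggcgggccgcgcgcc
The letters begin 23 bases before the start in Asns, 30 in Gars, and 66 and 47 in Slc7a11. In windows from 250 bases before to 50 after the start, 1304 of 32851 promoters in the RefSeq table (3.97%) held TGATGNAA on either strand. Of the tested members of these 3 lists with an entry there, 14 of 41 (34.1%) held it, and of those that rose 9 of 27 (33.3%). The share of all promoters counts windows, whereas the shares of list members count genes with a match in any of their windows. The share among the members that rose was close to that among all tested members, and a match describes letters, not binding.

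Psat1, the aminotransferase of serine synthesis, was at 6.61, 4.96, 7.17 and 5.41 CPM in KI_Con and 32.8 to 74.9 CPM (median 50.9) in KI_Half. Phgdh, which opens the same pathway, was at 11.8, 8.37, 12.4 and 12.2 CPM against 42.1 to 77.9 CPM (median 66.5). Asns, which makes asparagine from aspartate, was at 20.5, 17.8, 21.1 and 16.2 CPM against 88.8 to 155 CPM (median 118). In all 3 genes every KI_Half library lay well above every control, KI_Half 7 included. The log2 changes were 3.15 ± 0.24, adjusted p = 8.73e-05 for Psat1, 2.53 ± 0.19, adjusted p = 8.73e-05 for Phgdh and 2.66 ± 0.20, adjusted p = 8.73e-05 for Asns. Mthfd2, the mitochondrial folate enzyme that passes on one-carbon units, was at 13.6, 11.9, 19.1 and 11.7 CPM and then 50.3 to 109 CPM (median 75.7; log2 change 2.48 ± 0.27, adjusted p = 2.90e-04). Atf5, a transcription factor linked to mitochondrial protein stress and a target of Atf4, was at 26.7, 18.5, 23.8 and 25.8 CPM and then 80.2 to 214 CPM (median 128), again without overlap (log2 change 2.61 ± 0.28, adjusted p = 2.86e-04).

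Slc7a11, the cystine carrier that feeds glutathione synthesis, was at 0.154, 0.558, 0.312 and 0.750 CPM in KI_Con and 3.06 to 14.1 CPM (median 9.50) in KI_Half (log2 change 4.30 ± 0.60, adjusted p = 6.38e-04). Slc7a5, a carrier of large neutral amino acids, was at 9.08, 9.16, 13.7 and 8.73 CPM and then 29.7 to 95.2 CPM (median 65.8; log2 change 2.59 ± 0.31, adjusted p = 4.16e-04). Both were lowest in KI_Half 6 and 7 among the ethanol libraries, and neither overlapped the controls. Chac1, a glutathione-degrading enzyme raised by Atf4, was at 0.885, 1.38, 1.25 and 0.592 CPM and then 5.74 to 54.7 CPM (median 12.9; log2 change 4.32 ± 0.74, adjusted p = 0.00158). Gars, the glycyl-tRNA synthetase, was at 64.6, 66.2, 70.4 and 71.4 CPM and then 149 to 246 CPM (median 195; log2 change 1.54 ± 0.16, adjusted p = 2.83e-04). Farsb, of phenylalanyl-tRNA synthetase, was at 42.00, 41.3, 44.2 and 38.7 CPM and then 66.5 to 80.98 CPM (median 75.2), a smaller change with little spread (log2 change 0.84 ± 0.08, adjusted p = 2.32e-04). Each of these 3 genes was also above all controls in every KI_Half library.

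Members of the response differed. Atf4 transcript, whose protein is mainly set by translation, was at 231, 187, 212 and 208 CPM and then 279 to 477 CPM (median 415), a rise of 0.89 ± 0.16, adjusted p = 0.00181. Ddit3, which encodes CHOP, was at 18.00, 17.7, 22.2 and 23.2 CPM and then 10.7 to 19.95 CPM (median 15.9), and did not pass (log2 change -0.36 ± 0.19, adjusted p = 0.161). Trib3, an Atf4 and CHOP target, was at 22.1, 17.7, 15.8 and 23.7 CPM and then 13.5 to 34.7 CPM (median 22.2), also with overlap (log2 change 0.23 ± 0.27, adjusted p = 0.536). Chaperones of the endoplasmic reticulum showed no common direction: 3 of 22 rose and 4 fell (median -0.05; 0 and 3 without KI_Con 1 and 2). Dnajb9, a co-chaperone of that compartment, was at 75.96, 80.5, 74.1 and 79.8 CPM and then 47.1 to 57.5 CPM (median 52.1) and fell by log2 -0.57 ± 0.08, adjusted p = 7.33e-04. Among proteases and chaperones of mitochondria 6 of 13 rose and none fell (3 rose without KI_Con 1 and 2), with Hspd1, the chaperonin of the matrix, at 239, 237, 235 and 201 CPM and then 353 to 465 CPM (median 382; log2 change 0.79 ± 0.10, adjusted p = 4.80e-04). None of the 13 genes encoded on mitochondrial DNA passed with all 10 libraries in edgeR or DESeq2 (1 had an unadjusted p under 0.05 in edgeR, limma-voom called 2, and edgeR called at most 1 when 1 library was left out). Of the nuclear respiratory chain genes 7 of 30 fell and none rose (median -0.19; 0 fell without KI_Con 1 and 2, 4 without KI_Con 1 alone and 13 without KI_Half 7).

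**Figure D2:**
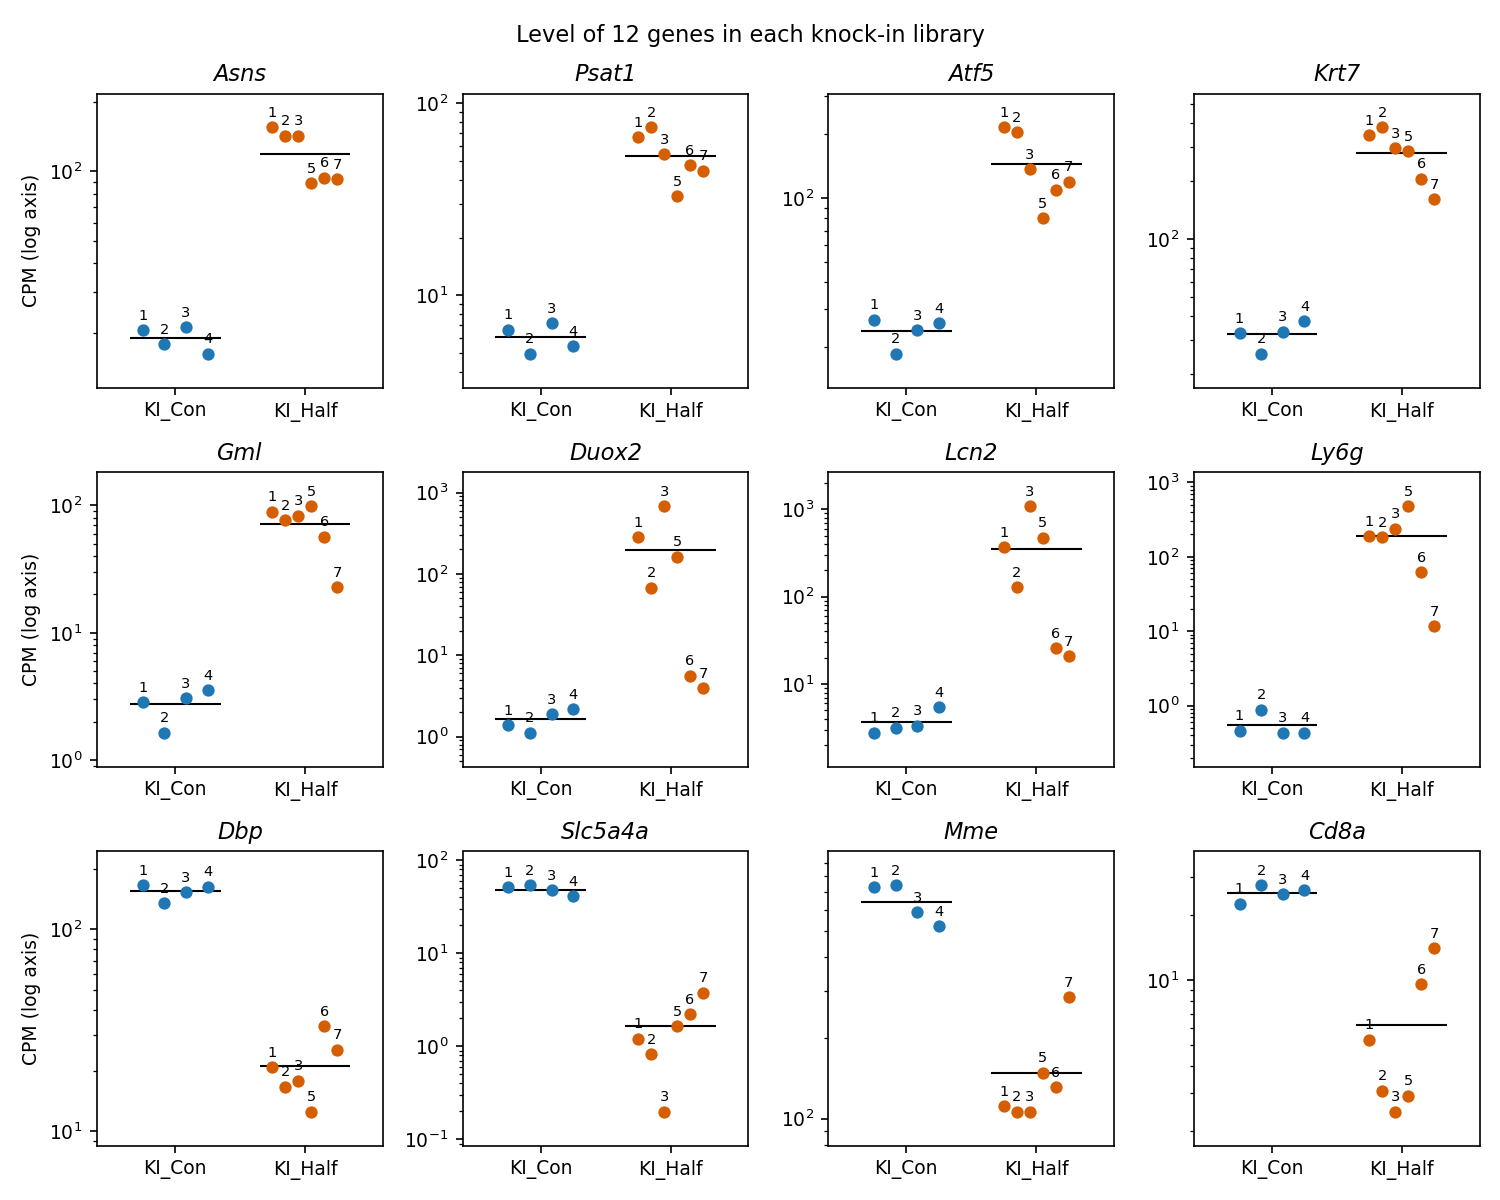
Level in CPM (log axis) of 12 genes in each KI_Con and KI_Half library; points are libraries labelled by replicate number and the bar is the group mean. Asns, Psat1, Atf5 and Krt7 rose in all 6 KI_Half libraries, Duox2 and Lcn2 were far lower in KI_Half 6 and 7 than in the other 4, and Dbp, Slc5a4a, Mme and Cd8a fell.

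Genes of the cytosolic ribosome rose in all members of both lists used, and those of the mitochondrial ribosome in most. In ribosome biogenesis 25 of 25 members rose (median 1.17; 24 without KI_Con 1 and 2), and of the cytosolic ribosomal proteins 30 of 30 (median 0.51; 19). Mitochondrial ribosomal proteins rose in 18 of 24 (median 0.54; 15). Rrp12, a factor in the export of ribosomal subunits, was at 13.8, 12.5, 13.7 and 10.98 CPM in KI_Con and 27.3 to 53.8 CPM (median 44.5) in KI_Half (log2 change 1.75 ± 0.18, adjusted p = 2.48e-04). Polr1a, the large subunit of RNA polymerase I, was at 9.96, 11.9, 12.3 and 12.2 CPM and then 20.4 to 35.2 CPM (median 30.2; log2 change 1.36 ± 0.15, adjusted p = 3.34e-04). Rps2, a protein of the small subunit, was at 840.2, 732, 919 and 707 CPM and then 1156 to 1448 CPM (median 1295; log2 change 0.72 ± 0.11, adjusted p = 8.48e-04). In each of the 3 genes all ethanol libraries stood above all controls. Myc, a transcription factor known to raise ribosome genes, was at 8.54, 14.7, 13.00 and 9.87 CPM and then 18.8 to 50.02 CPM (median 28.2; log2 change 1.51 ± 0.31, adjusted p = 0.00383).

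Genes of the cell cycle and DNA replication rose too, in 25 of 28 (median 0.81; 18 without KI_Con 1 and 2). Rrm2, the subunit of ribonucleotide reductase made in S phase, was at 41.7, 21.02, 27.00 and 31.6 CPM in KI_Con and 93.5 to 499 CPM (median 321) in KI_Half, lowest in KI_Half 7 but still above every control (log2 change 3.31 ± 0.42, adjusted p = 4.79e-04). Cdk1, the kinase of mitotic entry, was at 15.7, 10.1, 14.9 and 10.1 CPM and then 25.6 to 33.7 CPM (median 28.9; log2 change 1.22 ± 0.16, adjusted p = 5.32e-04). Of the genes for Fanconi and homologous repair, which mend the crosslinks that aldehydes can make, 8 of 20 rose and 1 fell (median 0.39; 3 and 0); the count of risen genes was 4 without KI_Con 1. Brca2, which loads the recombinase, was at 3.54, 2.63, 3.40 and 2.13 CPM and then 4.91 to 11.7 CPM (median 7.11; log2 change 1.36 ± 0.25, adjusted p = 0.00233). Of p53 targets 7 of 17 rose and 2 fell (1 and 1). Cdkn1a, the inhibitor of cyclin-dependent kinases, was at 244, 185, 193 and 271 CPM and then 297 to 562 CPM (median 378; log2 change 0.81 ± 0.18, adjusted p = 0.00545), while Sesn1, a p53 target that restrains mTOR signalling, was at 144, 166, 157 and 149 CPM and then 32.1 to 88.1 CPM (median 56.3; log2 change -1.46 ± 0.23, adjusted p = 0.00111). Of crypt stem cell genes 7 of 19 rose and 3 fell (1 and 0). Olfm4, a crypt marker, was at 114, 128, 142 and 70.2 CPM and then 175 to 237 CPM (median 205) and rose by 0.88 ± 0.18, adjusted p = 0.00357. Lgr5, the stem cell receptor for R-spondin, was at 4.58, 3.78, 3.40 and 5.25 CPM and then 1.31 to 2.87 CPM (median 2.15; log2 change -0.98 ± 0.27, adjusted p = 0.0152, and an adjusted p of 0.0527 without KI_Con 4).

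Some of the largest rises were in oxidant-producing, antimicrobial and neutrophil genes, and they were uneven across the ethanol libraries. Of the epithelial oxidant sources 6 of 7 rose (median 3.71). Without KI_Con 1 and 2, 0 passed, while the median was 4.56. Duox2, the dual oxidase that releases hydrogen peroxide into the lumen, was at 1.38, 1.12, 1.90 and 2.17 CPM in KI_Con and at 280.4, 68.1, 675, 162, 5.60 and 3.97 CPM in KI_Half 1, 2, 3, 5, 6 and 7. KI_Half 6 and 7 lay only just above the controls and the other 4 far above (log2 change 6.92 ± 1.49, adjusted p = 0.00461; 6.00 without KI_Half 3). Duoxa2, its maturation factor, was at 0.500, 0.591, 0.312 and 0.632 CPM and then at 141, 28.7, 371, 95.4, 0.830 and 1.78 CPM in the same order (log2 change 7.71 ± 1.74, adjusted p = 0.00574; 6.73 without KI_Half 3). Nos2, the inducible nitric oxide synthase, was at 0.308, 0.394, 0.624 and 0.118 CPM and then 89.1, 50.3, 42.7, 4.95, 0.553 and 2.18 CPM, with KI_Half 6 inside the control range (log2 change 6.40 ± 1.47, adjusted p = 0.00632; 5.75 without KI_Half 1). All 3 were lowest in KI_Half 6 and 7. With limma-voom and sample quality weights, which weight libraries unequally, none of the 3 passed (adjusted p = 0.0520, 0.172 and 0.146 in that order).

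Of 20 listed antimicrobial and acute-phase genes 17 were in the deposited counts, and 7 of these rose (median 0.66, and 7 rose without KI_Con 1 and 2). Lcn2, lipocalin 2, which withholds iron from bacteria, was at 2.77, 3.15, 3.34 and 5.45 CPM and then at 369.9, 129, 1081, 474, 25.6 and 20.8 CPM (log2 change 6.58 ± 1.21, adjusted p = 0.00215; 5.81 without KI_Half 3). Saa3, a serum amyloid A protein, was at 0.308, 0.690, 0.499 and 0.869 CPM and then 10.2 to 30.1 CPM (median 18.8), more even than Lcn2 (log2 change 4.98 ± 0.41, adjusted p = 9.26e-05). Reg3b, an antimicrobial lectin of the epithelium, was at 116, 168, 47.6 and 69.8 CPM and then 179 to 4073 CPM (median 2197; log2 change 4.38 ± 0.83, adjusted p = 0.00250). In these genes too the lowest ethanol library was KI_Half 6 or 7, yet none overlapped the controls. Il33, an alarmin of epithelium and stroma, was at 11.7, 15.6, 14.4 and 14.8 CPM and then 19.3 to 684 CPM (median 279). Its log2 change was 4.45 ± 0.89, adjusted p = 0.00315. Of 25 listed cytokines and alarmins 16 were in the deposited counts, of which 8 rose and 2 fell (3 and 1 without KI_Con 1 and 2). Those absent include Il6, Il22, Il17a and Ifng. Il1rn, the natural blocker of the interleukin-1 receptor, was at 0.500, 1.08, 1.03 and 1.07 CPM and then 3.94 to 25.6 CPM (median 17.8; log2 change 4.08 ± 0.52, adjusted p = 4.80e-04). Of NF-kB regulators and sensors 7 of 21 rose and 2 fell (1 and 0 without KI_Con 1 and 2, and 2 rose without KI_Con 2 alone). In edgeR with all 10 libraries no interferon-stimulated gene rose (1 had a positive change at an unadjusted p under 0.05, and 1 rose without KI_Half 3), while 6 of 26 fell (2 without KI_Con 1 and 2).

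Of 14 listed neutrophil genes 10 were in the deposited counts, and 9 of these rose (median 5.64, and 8 rose without KI_Con 1 and 2). The deposited counts hold only genes with over 20 counts in at least 5 libraries. A gene near 0 in the controls thus enters through other libraries and could hardly be called lower, so this count is no test of direction. Ly6g, a surface protein of mouse neutrophils, was at 0.462, 0.887, 0.437 and 0.434 CPM in KI_Con and 188, 182, 238, 474, 62.4 and 11.6 CPM in KI_Half 1, 2, 3, 5, 6 and 7, the largest rise of all genes that passed (log2 change 8.43 ± 1.06, adjusted p = 4.56e-04). Per kilobase of exon the mean level of Ly6g went from 0.589 to 204 CPM, whereas S100a8, a calprotectin subunit and among the most abundant transcripts of neutrophils, went from 0.106 to 8.36, and Cxcr2, the neutrophil receptor for chemokines, from 0.0234 to 1.06. On this scale Ly6g in KI_Half stood far above the other neutrophil genes; whether cells other than neutrophils carry it here was not tested. S100a9, the other calprotectin subunit, was at 0.154, 0.263, 0.187 and 0 CPM and then 1.96 to 23.8 CPM (median 7.39; log2 change 5.86 ± 0.81, adjusted p = 6.16e-04). Cxcl2, a chemokine for neutrophils, was at 0.538, 0.0985, 0.125 and 0.316 CPM and then 1.86 to 42.1 CPM (median 10.9; log2 change 5.83 ± 0.99, adjusted p = 0.00149; 5.18 without KI_Half 5). KI_Half 5 was the highest and KI_Half 7 the lowest for Ly6g, S100a9 and Cxcl2. Csf3, the growth factor for granulocytes, was listed at 0 in KI_Con 1, 2 and 4 and at 0.0624 CPM in KI_Con 3, against 0.546 to 9.14 CPM (median 2.70). Mmp3, a matrix-degrading enzyme of fibroblasts, was at 0.346, 0.197, 0.655 and 0.434 CPM and then 5.42 to 37.7 CPM (median 14.6; log2 change 5.44 ± 0.62, adjusted p = 3.76e-04). Mmp13, a collagenase, was at 2.35, 4.20, 3.62 and 6.91 CPM and then 7.58 to 27.1 CPM (median 13.3; log2 change 1.90 ± 0.41, adjusted p = 0.00457).
The 250 bases before the start of both enzyme genes hold the AP-1 letters TGACTCA on one or the other strand (capitals), beginning 46 bases before the start in Mmp3 and 35 in Mmp13; 5.20% of all promoter windows hold them. Of the tested genes of the fibroblast and matrix list with an entry 4 of 16 held them, 2 of the 3 that rose and 1 of the 6 that fell, so the letters were not limited to genes that rose. These list counts are again of genes with a match in any window, unlike the share of all windows.
Mmp3, chr9:7445572-7445821, plus strand: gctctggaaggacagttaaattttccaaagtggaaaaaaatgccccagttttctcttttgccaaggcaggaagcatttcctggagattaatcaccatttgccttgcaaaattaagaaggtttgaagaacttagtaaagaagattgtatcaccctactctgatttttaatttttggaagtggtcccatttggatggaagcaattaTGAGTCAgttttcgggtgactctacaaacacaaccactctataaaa
Mmp13, chr9:7272264-7272513, plus strand: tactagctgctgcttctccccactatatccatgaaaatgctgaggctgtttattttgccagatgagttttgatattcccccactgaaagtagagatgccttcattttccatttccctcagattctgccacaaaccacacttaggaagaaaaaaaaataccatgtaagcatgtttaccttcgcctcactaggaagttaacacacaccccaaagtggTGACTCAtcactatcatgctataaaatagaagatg

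Keratins and other genes linked to injured or regenerating epithelium rose in 19 of 25 and none fell (median 1.83). Without KI_Con 1 and 2, 8 rose, while the median was 1.74. Krt7, a keratin of simple ductal epithelia, was at 32.7, 25.6, 33.2 and 37.6 CPM in KI_Con and 161 to 378 CPM (median 289.8) in KI_Half (log2 change 3.11 ± 0.24, adjusted p = 9.26e-05). Krt18, a keratin of simple epithelium, was at 199.7, 165, 216 and 259 CPM and then 516 to 1849 CPM (median 1364; log2 change 2.59 ± 0.32, adjusted p = 4.56e-04). Krt23 was at 8.77, 11.99, 11.1 and 13.5 CPM and then 26.2 to 159 CPM (median 87.1; log2 change 2.87 ± 0.44, adjusted p = 8.91e-04). The 3 keratins kept the order seen elsewhere, with KI_Half 7 the lowest and still above every control. Gml, a member of the Ly6 family of anchored surface proteins, was at 2.85, 1.64, 3.06 and 3.55 CPM and then 22.7 to 98.3 CPM (median 80.02; log2 change 4.69 ± 0.42, adjusted p = 1.68e-04). Gml2, a related gene, was at 0.577, 0.558, 0.592 and 2.21 CPM and then 7.79 to 39.5 CPM (median 32.1; log2 change 4.88 ± 0.57, adjusted p = 3.88e-04; 5.62 without KI_Con 4). Ereg, epiregulin, a growth factor for the EGF receptor, was at 0.615, 0.887, 1.62 and 3.36 CPM and then 10.9 to 73.1 CPM (median 23.4; log2 change 4.28 ± 0.69, adjusted p = 0.00117; 4.88 without KI_Con 4). Areg, amphiregulin, another ligand of that receptor, was at 12.6, 13.5, 14.8 and 22.9 CPM and then 16.3 to 218 CPM (median 95.8), with KI_Half 7 inside the control range (log2 change 2.71 ± 0.63, adjusted p = 0.00673). Sprr2f, a small proline-rich protein of barrier epithelia, was listed at 0 in KI_Con 1, 3 and 4 and at 0.0657 CPM in KI_Con 2, against 0.619 to 11.6 CPM (median 5.02).

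Junction and mucus genes differed in direction. Cldn2, the claudin that forms cation and water pores, was at 86.2, 112, 147 and 104 CPM in KI_Con and 259.6 to 641 CPM (median 502) in KI_Half (log2 change 2.08 ± 0.25, adjusted p = 4.16e-04). Cldn15, the other pore claudin of the small intestine, was at 772, 690.2, 599 and 662 CPM and then 70.1 to 402 CPM (median 177; log2 change -1.77 ± 0.38, adjusted p = 0.00450). The pair moved in opposite directions in every ethanol library, while over the whole list 5 of 22 rose and 2 fell (1 and 1 without KI_Con 1 and 2, and 2 rose without KI_Con 1 alone). Fut2, the fucosyltransferase that decorates mucus and the epithelial surface, was at 5.08, 1.90, 13.7 and 4.38 CPM and then 277, 57.4, 591, 227, 11.2 and 11.4 CPM, with KI_Half 6 and 7 below the highest control (log2 change 4.96 ± 1.23, adjusted p = 0.00914; 5.71 without KI_Con 3 and 4.23 without KI_Half 3). Of goblet cell and mucus genes 2 of 15 rose and 5 fell (1 and 4; 4 rose without KI_Con 3 alone and 3 fell without KI_Con 1 alone). Muc2, the gel-forming mucin of goblet cells, was at 956, 745, 808 and 979 CPM and then 627 to 1038 CPM (median 841), with the ranges overlapping. Clca1, a protein of goblet cell mucus, was at 1410, 1070, 1253 and 1576 CPM and then 493 to 717 CPM (median 698; log2 change -0.99 ± 0.14, adjusted p = 5.92e-04). Dmbt1, a scavenger protein of gut and Brunner glands, was at 1253, 1207, 1073 and 1040 CPM and then 2350 to 6421 CPM (median 3685; log2 change 1.77 ± 0.26, adjusted p = 7.54e-04), although the Brunner gland genes above did not separate the groups.

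Transcripts of lymphocytes and of antigen presentation were lower. Of T and NK cell genes 17 of 20 fell and none rose (median -1.75; 8 fell without KI_Con 1 and 2, and 11 without KI_Con 4 alone). Of B and plasma cell genes 10 of 12 fell (median -1.65; 8), and of MHC class II genes 9 of 11 (median -1.47; 5, and 4 without KI_Con 4 alone). In bulk tissue fewer cells of a type and less RNA per cell cannot be told apart, here or in the lists above. Cd8a, the co-receptor of cytotoxic T cells, was at 22.6, 27.4, 24.9 and 26.1 CPM in KI_Con and 2.46 to 14.04 CPM (median 4.18) in KI_Half (log2 change -2.01 ± 0.45, adjusted p = 0.00539). Itgae, the integrin that holds T cells in the epithelium, was at 12.00, 17.8, 14.1 and 22.7 CPM and then 1.52 to 8.48 CPM (median 3.39; log2 change -2.03 ± 0.43, adjusted p = 0.00421). Gzma, a granzyme, was at 107, 112, 97.2 and 122 CPM and then 12.6 to 72.04 CPM (median 22.4; log2 change -1.82 ± 0.38, adjusted p = 0.00427). KI_Half 7 was the highest ethanol library for all 3, and none reached the controls. Jchain, which joins the units of secreted IgA, was at 841, 1233, 1073 and 1165 CPM and then 137 to 712 CPM (median 316; log2 change -1.57 ± 0.34, adjusted p = 0.00453). H2-Ob, which tunes peptide loading in B cells, was at 2.12, 3.81, 2.65 and 4.34 CPM and then 0.340 to 1.53 CPM (median 0.630; log2 change -2.17 ± 0.40, adjusted p = 0.00208). Csf1r, the growth factor receptor of macrophages, was at 42.6, 57.9, 41.3 and 76.97 CPM and then 8.78 to 27.8 CPM (median 24.4; log2 change -1.28 ± 0.28, adjusted p = 0.00522), in a list where 7 of 15 fell and 1, Itgam, rose (6 and 0 without KI_Con 1 and 2). Itgam, an integrin of neutrophils and macrophages, was at 1.96, 2.92, 4.80 and 3.16 CPM and then 5.09 to 10.6 CPM (median 6.08; log2 change 1.08 ± 0.28, adjusted p = 0.0112). The summed level of the T and NK cell list was 266 to 348 CPM in KI_Con and 39.8 to 186 CPM in KI_Half.

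**Figure D3:**
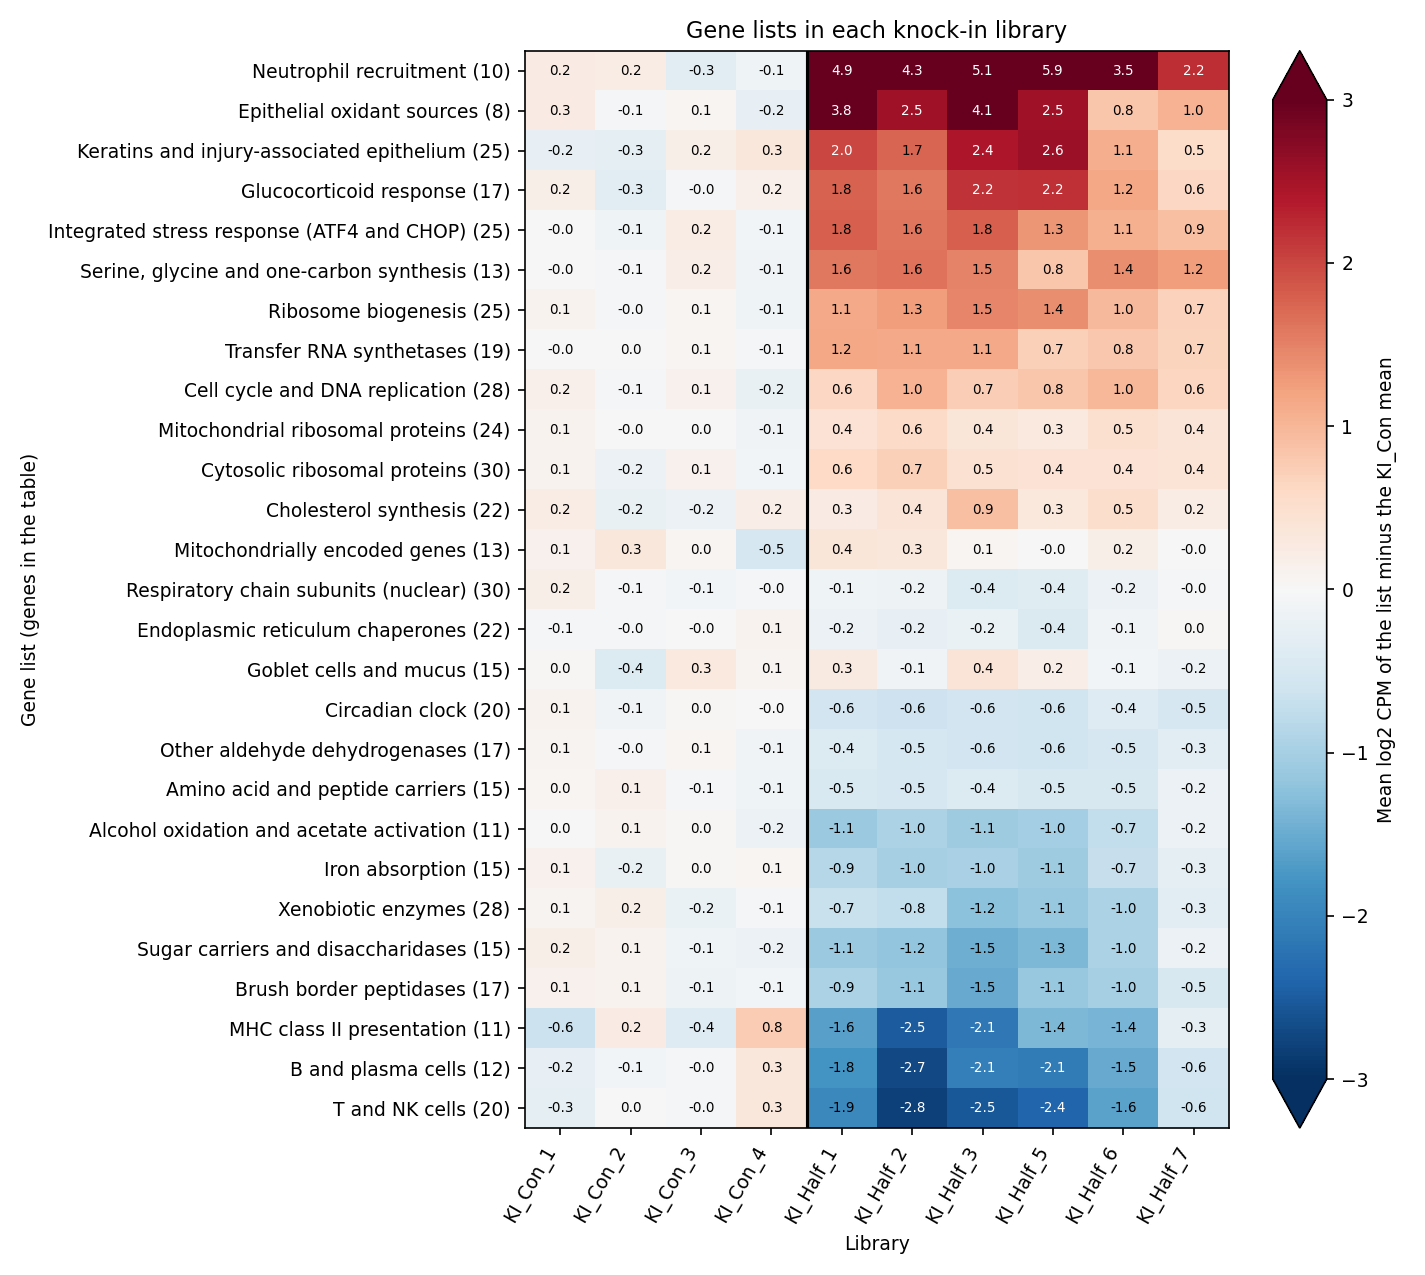
Mean log2 CPM of the genes of each list in each library, minus the mean of the 4 KI_Con libraries (printed value and colour, whose scale ends at 3; red higher, blue lower; the number of genes in brackets). Lists for neutrophils and oxidant sources are highest in KI_Half 1, 2, 3 and 5, those for T and B cell genes are lowest in the same libraries, and KI_Half 7 is the palest ethanol column in most rows.

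Most brush border peptidases and sugar genes of the villus enterocyte fell. Of brush border peptidases 14 of 17 fell and none rose (median -0.97; 6 without KI_Con 1 and 2), and of sugar carriers and disaccharidases 9 of 15 (median -0.84; 4). Mme, neprilysin, a peptidase of the brush border, was at 727, 739.6, 587 and 522 CPM in KI_Con and 106 to 284 CPM (median 121) in KI_Half (log2 change -2.11 ± 0.27, adjusted p = 5.03e-04). Tmprss15, enteropeptidase, which activates pancreatic trypsinogen, was at 182, 177, 168 and 150.2 CPM and then 20.6 to 71.7 CPM (median 42.5; log2 change -1.88 ± 0.26, adjusted p = 6.44e-04). Slc5a4a, a protein of the glucose carrier family, showed the largest fall among genes outside the acinar list with no overlap and an average log2 CPM of at least 1. It was at 51.2, 53.6, 47.3 and 41.1 CPM and then 1.21, 0.823, 0.198, 1.64, 2.21 and 3.75 CPM in KI_Half 1, 2, 3, 5, 6 and 7 (log2 change -4.88 ± 0.51, adjusted p = 2.76e-04). Slc2a5, the fructose carrier, was at 684, 547, 423 and 520.2 CPM and then 97.8 to 253 CPM (median 134; log2 change -1.83 ± 0.24, adjusted p = 5.53e-04). Lct, lactase, was at 1046, 841, 783 and 769 CPM and then 84.9 to 559 CPM (median 137; log2 change -2.15 ± 0.48, adjusted p = 0.00573; -2.85 without KI_Half 7). For these 5 genes KI_Half 7 was the highest of the ethanol libraries and remained below every control.

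Most amino acid and peptide carriers fell: 10 of 15 fell and 3 rose (median -0.63, and 5 and 3 without KI_Con 1 and 2). The share that rose was no higher than the 20.0% of all genes. Those that fell include carriers of the brush border, such as Slc15a1, the carrier of di- and tripeptides, at 201, 218, 181 and 195 CPM and then 58.4 to 113 CPM (median 66.03; log2 change -1.44 ± 0.17, adjusted p = 4.16e-04). Slc6a20a, a proline carrier, was at 153, 195, 149 and 102 CPM and then 11.3 to 64.8 CPM (median 13.9; log2 change -2.76 ± 0.49, adjusted p = 0.00187; -3.49 without KI_Half 7). The 3 that rose were Slc7a5, given above, Slc1a5 and Slc38a2. Slc1a5, which carries glutamine and other neutral amino acids, was at 68.00, 57.7, 98.1 and 58.3 CPM and then 119 to 282 CPM (median 199; log2 change 1.47 ± 0.24, adjusted p = 0.00118). Slc38a2, a sodium-coupled carrier of neutral amino acids, was at 56.5, 79.5, 67.4 and 61.5 CPM and then 91.5 to 164 CPM (median 141; log2 change 1.00 ± 0.18, adjusted p = 0.00212). In both carriers that rose, as in both named ones that fell, the groups did not overlap.

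Most iron and calcium uptake genes fell: 9 of 15 iron genes fell and none rose (median -0.56; 7 without KI_Con 1 and 2), and 5 of 8 calcium genes fell while 1 rose (2 and 1; 3 fell without KI_Con 3 alone). Slc40a1, ferroportin, which passes iron to the blood, was at 1270, 1441, 1461 and 1266 CPM in KI_Con and 344 to 716 CPM (median 406) in KI_Half (log2 change -1.56 ± 0.20, adjusted p = 4.63e-04). Cybrd1, the ferric reductase of the brush border, was at 354, 246, 426 and 652 CPM and then 29.1 to 244 CPM (median 48.5; log2 change -2.26 ± 0.55, adjusted p = 0.00866; -2.93 without KI_Half 7). S100g, the calcium-binding calbindin of enterocytes, was at 1186, 879.9, 834 and 1293 CPM and then 121 to 319 CPM (median 226; log2 change -2.19 ± 0.25, adjusted p = 3.57e-04). None of the 3 overlapped. Xenobiotic enzymes fell in 17 of 28 and rose in 1 (median -0.77; 10 and 0 without KI_Con 1 and 2). Ugt2b34, a glucuronosyltransferase, was at 778, 976, 735 and 749.9 CPM and then 253 to 469.9 CPM (median 284; log2 change -1.37 ± 0.18, adjusted p = 4.80e-04), and Abcc2, the export pump for such conjugates, was at 666, 738, 555 and 601 CPM and then 100.4 to 287 CPM (median 195; log2 change -1.79 ± 0.26, adjusted p = 7.47e-04). Defence genes of the NRF2 pathway did not move as one, since 7 of 29 rose and 7 fell (4 and 4). Akr1b8, an aldo-keto reductase that reduces reactive aldehydes, was at 5.88, 7.52, 5.43 and 9.20 CPM and then 27.9 to 146 CPM (median 74.2; log2 change 3.41 ± 0.45, adjusted p = 5.44e-04), and Gsta4, the glutathione transferase for lipid aldehydes, was at 675, 773, 773 and 849 CPM and then 374 to 465 CPM (median 419; log2 change -0.85 ± 0.10, adjusted p = 3.53e-04).

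Lipid genes were mixed. In fat absorption 4 of 20 rose and 4 fell (0 and 2 without KI_Con 1 and 2, and 1 rose without KI_Con 2 alone). In fatty acid oxidation 3 of 24 rose and 9 fell (3 and 2; 5 fell without KI_Con 2 alone). Fabp2, the fatty acid binding protein of the small intestine, was at 4019, 3226, 2716 and 3159 CPM in KI_Con and 846 to 1642 CPM (median 1558) in KI_Half (log2 change -1.20 ± 0.18, adjusted p = 9.00e-04). Acot1, a cytosolic thioesterase that splits fatty acyl-CoA, was at 3.23, 2.73, 4.24 and 2.45 CPM and then 11.6 to 44.98 CPM (median 30.5; log2 change 3.26 ± 0.39, adjusted p = 4.16e-04). Fabp2 and Acot1 thus stood at opposite sides of their controls in all 6 ethanol libraries. Cholesterol synthesis genes rose in 11 of 22 and fell in 1 (median 0.56). Without KI_Con 1 and 2 only 1 rose and 1 fell, while the median was 0.54. Without KI_Half 6, 3 fell.

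**Figure D4:**
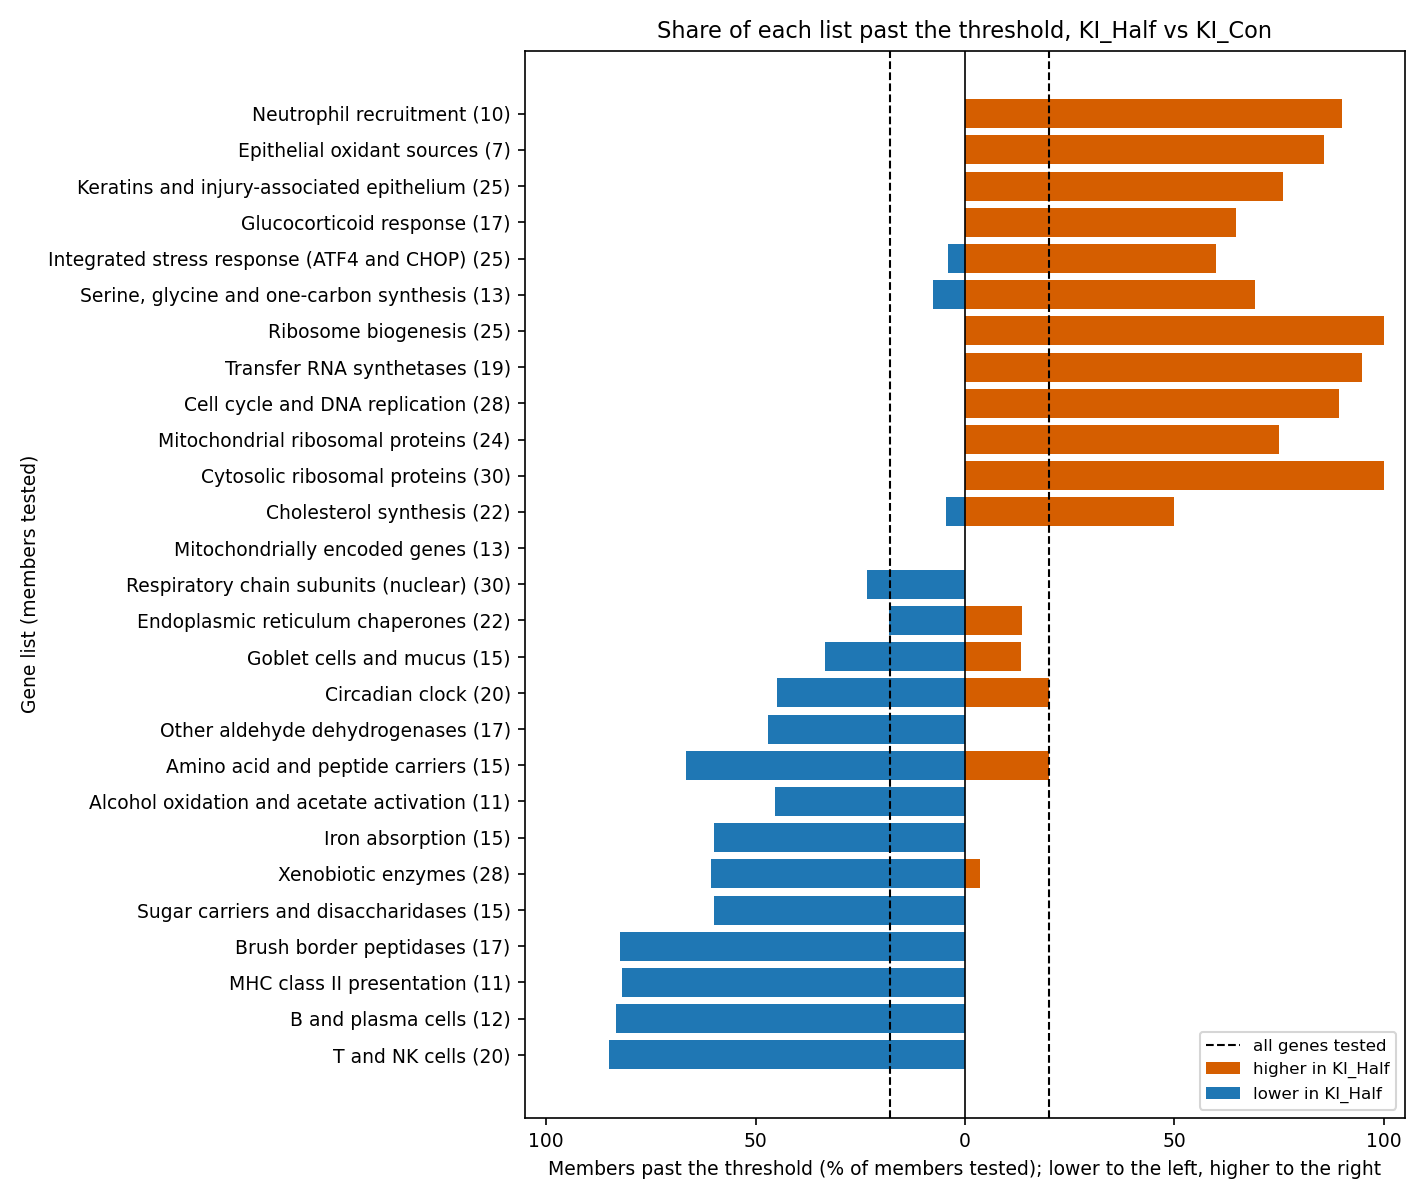
Share of the tested members of each list that passed an adjusted p under 0.05, with lower genes to the left and higher genes to the right (number tested in brackets); dashed lines mark the shares of all genes, 17.9% lower and 20.0% higher. All members of the ribosome biogenesis and cytosolic ribosomal protein lists lie to the right and most of the T, B, MHC class II and peptidase lists to the left, while mitochondrially encoded genes show no bar.

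Of the circadian clock list 9 of 20 fell and 4 rose (8 and 1 without KI_Con 1 and 2), and Dbp, Nr1d2 and Nr1d1 were lower in every ethanol library than in any control. Dbp, a transcription factor driven directly by the clock, was at 165, 135, 153 and 163 CPM in KI_Con and 12.5 to 33.2 CPM (median 19.3) in KI_Half (log2 change -2.86 ± 0.23, adjusted p = 9.26e-05). Nr1d2, a repressor in the second loop of the clock, was at 78.2, 87.8, 74.9 and 85.1 CPM and then 26.1 to 29.7 CPM (median 26.96), the smallest p of all genes (log2 change -1.57 ± 0.08, adjusted p = 4.79e-06). Nr1d1, its relative, was at 127, 207, 138 and 239 CPM and then 33.6 to 52.2 CPM (median 35.9; log2 change -2.17 ± 0.19, adjusted p = 1.37e-04). Arntl, which encodes BMAL1 and runs in antiphase to them, was at 4.88, 6.70, 5.49 and 5.13 CPM and then 6.59 to 10.95 CPM (median 8.56; log2 change 0.63 ± 0.17, adjusted p = 0.0133), with the lowest ethanol library just below the highest control. Per2, of the core loop, was at 142, 66.1, 94.3 and 82.9 CPM and then 39.7 to 96.1 CPM (median 77.03) and did not pass (log2 change -0.46 ± 0.27, adjusted p = 0.192). The time of collection is counted from an ethanol gavage and the hour of the day is not stated, so a different hour of collection and ethanol cannot be told apart in these genes.

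Glucocorticoid-responsive genes rose in 11 of 17 and none fell (median 1.73; 6 without KI_Con 1 and 2). Fkbp5, a co-chaperone of the glucocorticoid receptor and a sensitive target of it, was at 98.2, 13.5, 51.7 and 39.02 CPM in KI_Con and 261 to 699.6 CPM (median 622) in KI_Half (log2 change 3.45 ± 0.51, adjusted p = 7.73e-04). Ddit4, an inhibitor of mTOR signalling raised by glucocorticoids and by Atf4, was at 26.4, 19.7, 26.4 and 25.4 CPM and then 54.00 to 147 CPM (median 122; log2 change 2.21 ± 0.25, adjusted p = 3.66e-04). Mt1, a metallothionein, was at 213, 158, 161 and 216 CPM and then 242 to 1359 CPM (median 593; log2 change 1.82 ± 0.45, adjusted p = 0.00887). Mt2 was at 2.00, 3.35, 2.06 and 2.33 CPM and then 5.28 to 65.01 CPM (median 7.79; log2 change 3.24 ± 0.83, adjusted p = 0.0105; 2.57 without KI_Half 5). All 4 genes were lowest among the ethanol libraries in KI_Half 7 and stayed above the controls. Per1, a clock gene that glucocorticoids also raise, was at 100.1, 65.2, 119.6 and 93.1 CPM and then 44.8 to 108 CPM (median 84.5) and did not pass (log2 change -0.20 ± 0.22, adjusted p = 0.499). Lcn2, Cdkn1a, Mt1 and Mt2 are on this list and on others used above, so the lists are not independent of each other.

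Lists of stromal cells were mixed. Of fibroblast and matrix genes 9 of 24 fell and 3 rose (7 and 2 without KI_Con 1 and 2; 5 fell without KI_Con 4 and 6 rose without KI_Half 7). Col3a1, a fibrillar collagen, was at 97.2, 129, 126 and 149.7 CPM in KI_Con and 30.6 to 64.04 CPM (median 40.4) in KI_Half (log2 change -1.46 ± 0.20, adjusted p = 6.44e-04). Of endothelial genes 7 of 16 fell and 1 rose (3 and 0). Plvap, which forms the diaphragms of fenestrated capillaries, was at 157, 144, 132 and 195 CPM and then 23.3 to 100.2 CPM (median 53.2; log2 change -1.47 ± 0.29, adjusted p = 0.00325). Des, desmin, a filament of smooth muscle, was at 464, 336, 427 and 395 CPM and then 278 to 641 CPM (median 389), and 3 of 14 genes of that list fell (3; 5 without KI_Half 5). Gfap, an intermediate filament of enteric glia, was at 1.69, 0.887, 1.43 and 2.13 CPM and then 1.78 to 36.8 CPM (median 13.4), with KI_Half 7 inside the control range (log2 change 3.38 ± 0.68, adjusted p = 0.00334). In enteroendocrine cells 6 of 16 genes rose and none fell (4 rose). Tac1, which encodes substance P, was at 5.54, 3.88, 3.68 and 5.17 CPM and then 7.81 to 17.01 CPM (median 11.6; log2 change 1.36 ± 0.23, adjusted p = 0.00146).

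In wild type mice on the same regimen most of these genes had a change of the same sign, and in edgeR no difference between the genotypes passed. In 1 edgeR fit of 21 libraries, 5999 of 17006 genes (35.3%) passed for KI_Half against KI_Con and 1169 (6.87%) for WT_Half against WT_Con; 852 genes passed in both with the same sign. These 2 comparisons share no library, but the spread is estimated over all 21. Of the 3388 genes that rose in the knock-in 91.4% had a positive change in the wild type, against 49.5% of all 17006 genes. The median of the 3388 genes was 0.37 there against 0.74 in the knock-in. Of the 3032 that fell 92.9% had a negative change in the wild type, with a median of -0.35 there and -0.82 in the knock-in. These genes were chosen by their change in the knock-in, so the smaller median in the wild type is a description. The interaction term, which tests whether the 2 changes differ, passed for 0 of 17006 genes in edgeR, where the smallest adjusted p was 0.277. DESeq2 called 36. In edgeR 2162 genes had an unadjusted p under 0.05, more than the share of 0.05 that equal changes would give on average. Genes that did not pass were thus not shown to change equally in both genotypes.

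Other tissue also differed among the wild type libraries. WT_Con 3 held 12462 CPM of Gkn1 and Gkn2, 2 secreted proteins of the stomach lining, against 0 to 27.2 CPM in the other 20 libraries. WT_Con 1 and 3 held 1827 and 1358 CPM of the 6 acinar enzymes, against 1.46 to 36.4 CPM in WT_Half. In both genotypes the highest acinar sums were thus in control libraries, and their part in the shared signs was not tested. The Brunner gland genes summed to 35.1 to 53685 CPM in WT_Con and 46.5 to 16945 CPM in WT_Half. The number of genes called in the wild type depended on single libraries: it was 695 without WT_Con 3, 710 without WT_Con 1, 531 without WT_Con 4, 668 without WT_Half 5 and 610 without WT_Half 7, and 1771 without WT_Half 6. With 1 wild type library left out, 85 to 96.8% of the genes that rose and 87.9 to 95.2% of those that fell in the knock-in had the same sign in the wild type, with medians from 0.25 to 0.44 and from -0.40 to -0.30; both shares were highest without WT_Con 3. The interaction stayed at 0 genes whichever library was left out.

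For some genes the change passed in both genotypes. Ly6g had a log2 change of 6.83 ± 1.08 in the wild type against 8.43 in the knock-in, an interaction of 1.59 ± 1.40, adjusted p = 0.626; without WT_Con 4 the wild type change was 8.44 and the interaction -0.02. Psat1 stood at 2.39 ± 0.34 in the wild type, an interaction of 0.76 ± 0.44, adjusted p = 0.456. Fkbp5 stood at 2.98 ± 0.63, an interaction of 0.47 ± 0.79, adjusted p = 0.812; without WT_Con 2 these were 3.63 and -0.17. The adjusted p of the wild type change itself was 0.00233 for Ly6g, 7.99e-04 for Psat1 and 0.00967 for Fkbp5. Other genes passed in the knock-in and not in the wild type, where their log2 changes lay between 0.04 and 0.96. Duox2 had a wild type change of 0.04 ± 1.11, with WT_Con libraries from 1.39 to 51.1 CPM and WT_Half libraries from 2.79 to 78.4 CPM, and an interaction of 6.88 ± 1.81, adjusted p = 0.327. Nos2 stood at 0.44 ± 0.94, an interaction of 5.97 ± 1.46, adjusted p = 0.327. Slc7a11 stood at 0.96 ± 0.59, an interaction of 3.33 ± 0.88, adjusted p = 0.327. Mthfd2, at 0.53 ± 0.29, had the smallest unadjusted interaction p of the genes described (1.24e-04), and an interaction of 1.95 ± 0.41, adjusted p = 0.327. For none of these 4 did the difference between genotypes pass the adjustment. These wild type changes varied with the library left out. That of Duox2 ranged from -1.21 without WT_Half 6 to 1.66 without WT_Con 3, the library with stomach transcripts, and its interaction from 8.13 to 5.26. That of Nos2 ranged from -0.10 without WT_Half 6 to 1.12 without WT_Con 4, with interactions of 6.51 and 5.30. Without WT_Con 3 that of Slc7a11 was 2.08 and that of Mthfd2 0.93, with interactions of 2.21 and 1.55, and over the other wild type libraries left out they were 0.61 to 1.08 and 0.34 to 0.59. None of the 4 passed in the wild type or as an interaction in any of these fits.

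**Figure D5:**
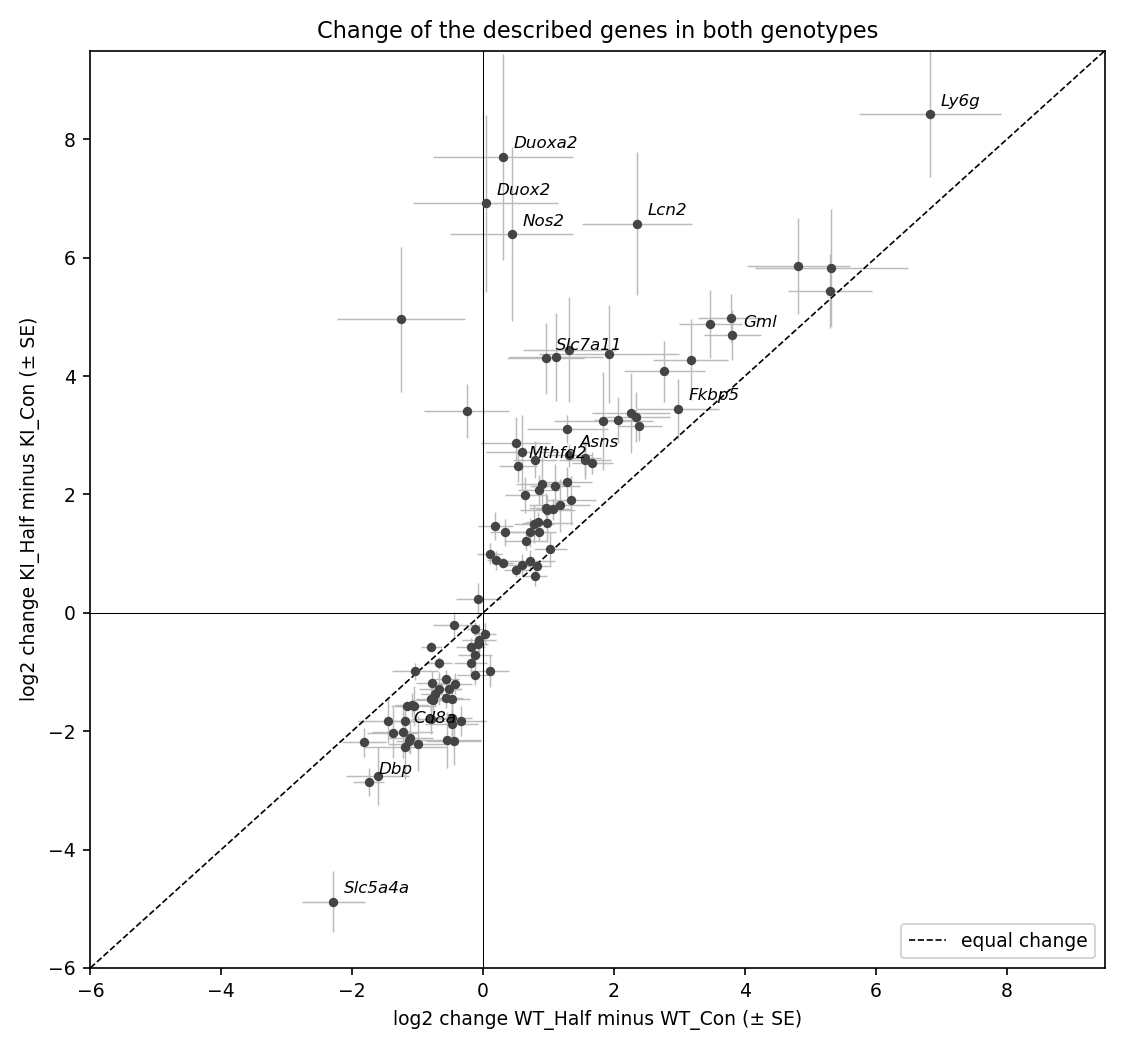
Log2 change on ethanol in the knock-in (vertical, KI_Half minus KI_Con) and in the wild type (horizontal, WT_Half minus WT_Con) of the genes whose change is given in the text, with SE bars; the dashed line marks equal change. Most genes lie in the 2 quadrants of equal sign, and Duox2, Duoxa2 and Nos2 stand near 0 in the wild type (for Duox2 from -1.21 to 1.66 with 1 wild type library left out) and above 6 in the knock-in.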

How the data were processed

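Duodenal messenger RNA of 25 libraries was measured by poly(A) RNA-seq. The authors deposited whole-number read counts per gene; per the submitters' processing notes FastQC, Trimmomatic, HISAT2, SAMtools, featureCounts and DESeq2 were used with GRCm38, and the labels name neither the strand setting nor the annotation release. The deposited tables hold 17220 lines for 17007 genes, because 213 lines repeat a gene, and every gene has over 20 counts in at least 5 libraries, so genes under that limit are not seen; 16995 identifiers were found in GENCODE M21.

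KI_Half was compared with KI_Con in R 4.3.3 with edgeR 4.0.16 (TMM scaling, filterByExpr, glmQLFit and glmQLFTest, adjusted p under 0.05). The interaction was fitted on 21 libraries of 4 groups. Alternatives were DESeq2 1.42.0, limma 3.58.1 (voom with sample quality weights), other scaling, filter, libraries and covariates, and a replicate block. The main fit in edgeR, DESeq2 and limma-voom and the edgeR interaction were tested on simulated data with 200 changed genes. That is far fewer changed genes than were called here, and the other steps were not simulated. CPM use TMM factors over all 25 libraries. CPM per kilobase divide by exonic length.

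Members and the 61 gene lists were chosen with earlier results of these data known. Genes were named by this rule: among genes whose average log2 CPM reached 1, the 8 largest and the 8 smallest-p changes in each direction. In each list, without that limit, they were the 4 members that passed with the smallest p in each direction (2 where none passed). Added after seeing the data were the largest changes whose groups do not overlap. The labels do not say that each library is a separate mouse; if not, p-values measure only the spread between these libraries, which may be technical.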

Additional observations from a re-analysis of the deposited data

Results flagged for a closer look

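In 37 of 250 groups of libraries, over 125 genes named in the text, 1 library lay so far from the rest that the gap, as a share of the group's range, passed Dixon's critical value; chance alone gives about 1 in 20 groups, and genes of 1 library are not independent of each other. KI_Half 7 was the highest in 13 of these, each a gene with a lower level on ethanol, and it lay nearer to the controls than the others. It stood apart for Adh1 at 862 CPM (next 492 CPM), Adh4 at 15.8 CPM (next 5.46 CPM), Cat at 179 CPM (next 130.0 CPM), Cybrd1 at 244 CPM (next 107 CPM) and Gzma at 72.04 CPM (next 33.2 CPM). It also stood apart for H2-Ob at 1.53 CPM (next 0.754 CPM), Lct at 559 CPM (next 139.9 CPM), Mme at 284 CPM (next 148 CPM), Npc1l1 at 309 CPM (next 218 CPM) and Scarb1 at 152 CPM (next 84.2 CPM). It also stood apart for Slc15a1 at 113 CPM (next 70.2 CPM), Slc6a20a at 64.8 CPM (next 14.5 CPM) and Ugt2b34 at 469.9 CPM (next 313 CPM). KI_Half 5 was the highest for Csf3 at 9.14 CPM (next 3.68 CPM), Cxcr2 at 8.19 CPM (next 3.46 CPM), Des at 641 CPM (next 407 CPM), Itgam at 10.6 CPM (next 6.98 CPM), S100a8 at 15.1 CPM (next 5.63 CPM) and S100a9 at 23.8 CPM (next 8.60 CPM), of which all but Des are neutrophil or myeloid genes. KI_Half 3 was the highest for Muc6 at 2970 CPM (next 696 CPM) and Tff2 at 2733 CPM (next 1024 CPM), and KI_Con 3 for Csf3 at 0.0624 CPM (next 0 CPM), Gkn3 at 2059 CPM (next 229 CPM), Muc6 at 4556 CPM (next 444 CPM), Slc7a5 at 13.7 CPM (next 9.16 CPM) and Tff2 at 4298 CPM (next 423 CPM), of which Muc6, Tff2 and Gkn3 are Brunner gland genes. KI_Half 2 was the lowest for Clca1 at 493 CPM (next 658 CPM) and Csf1r at 8.78 CPM (next 21.8 CPM). KI_Half 6 was the highest for 2 stomach genes, Gkn1 at 2.59 CPM (next 0.453 CPM) and Gkn2 at 1.76 CPM (next 0.481 CPM). Among the controls KI_Con 2 was the highest for Ly6g at 0.887 CPM (next 0.462 CPM) and Sprr2f at 0.0657 CPM (next 0 CPM) and the lowest for Ddit4 at 19.7 CPM (next 25.4 CPM) and Phgdh at 8.37 CPM (next 11.8 CPM). KI_Con 1 was the lowest for Il1rn at 0.500 CPM (next 1.03 CPM), KI_Con 4 the lowest for Hspd1 at 201 CPM (next 235 CPM) and the highest for Gml2 at 2.21 CPM (next 0.592 CPM). For Csf3 and Sprr2f the other controls were at 0, so any count in 1 control would be flagged. Those control flags do not show that a library differs. The rate of 1 in 20 is for normally distributed values, and CPM were used without a log.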

How the results depend on the processing

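Against 6420 genes (3388 higher and 3032 lower) in edgeR, DESeq2 called 3666 higher and 3399 lower and limma-voom 3916 higher and 3972 lower, with 6412 and 6321 of the same genes. Without KI_Con 1 and 2, with fewer samples, 2565 passed (1454 higher and 1111 lower). Leaving out 1 library gave 4927 to 7477 calls, 2656 to 3914 higher and 2271 to 3563 lower. A replicate block on the numbers 1, 2 and 3, which leaves 6 libraries, called 3143 higher and 3010 lower; the same 6 without the block, chosen after seeing the data, called 3306 higher and 3040 lower. The block is no pairing by design: deviations of same-numbered libraries correlated at 0.01, 0.06 and 0.20, and 1 of 3 ethanol libraries correlated best with its own number. The interaction was called for 0 genes in edgeR and in all 21 fits without 1 library, for 36 in DESeq2 (29 higher and 7 lower in the knock-in) and for 1 with the replicate block (1 higher, 0 lower); the cause was not tested. Of 106 genes whose change is printed, none turned sign under any of these settings and 80 kept their side of the threshold throughout; those that did not are named in the text, besides Arntl, which did not pass with the block or in its 6 libraries, Itgam, which did not in those 6, and Trib3, which passed in both. In limma-voom 1 gene with a printed change passed that did not pass in edgeR. The wild type counts without single libraries were added after seeing the data. Low genes limit the size of the largest folds: controls held 2 counts of Csf3 and of Sprr2f in all.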

Other observations

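Of carotenoid and retinoid genes 2 of 11 were higher and 5 lower (median 0.10, and 1 and 2 without KI_Con 1 and 2). Of all genes 20.0% were higher and 17.9% lower, so only the lower share of this list stood above that of all genes. Bco1, the enzyme that splits beta-carotene into retinal, was at 3.38, 2.86, 3.49 and 4.78 CPM in KI_Con and 6.33 to 29.8 CPM (median 15.8) in KI_Half (log2 change 2.14 ± 0.37, adjusted p = 0.00156). Scarb1, a receptor that takes up carotenoids and lipid, was at 215, 189, 178 and 237 CPM and then 73.3 to 152 CPM (median 75.9; log2 change -1.19 ± 0.21, adjusted p = 0.00177). These 2 genes moved in opposite directions with no overlap between the groups. In bile acid and sterol transport 2 of 13 rose and 4 fell (1 and 2). Nr1h4, the bile acid receptor FXR, was at 43.3, 31.2, 25.2 and 34.6 CPM and then 47.1 to 137 CPM (median 105; log2 change 1.50 ± 0.32, adjusted p = 0.00426). Npc1l1, the cholesterol importer of the brush border, was at 521, 584, 403 and 536 CPM and then 163 to 309 CPM (median 187; log2 change -1.29 ± 0.18, adjusted p = 5.94e-04).

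Of hypoxia and glycolysis genes 8 of 24 rose and 4 fell (3 and 2 without KI_Con 1 and 2). Slc2a1, the glucose carrier GLUT1, was at 20.9, 24.3, 24.3 and 26.9 CPM in KI_Con and 46.2 to 152 CPM (median 91.3) in KI_Half (log2 change 1.99 ± 0.31, adjusted p = 9.29e-04). Pkm, pyruvate kinase, was at 3569, 2728, 2964 and 3252 CPM and then 1848 to 2688 CPM (median 2071; log2 change -0.53 ± 0.13, adjusted p = 0.00813), a call lost without KI_Con 1 and 2. Of cytosolic heat shock genes 3 of 15 rose and 1 fell (1 and 0; 5 rose without KI_Half 7 and 3 fell without KI_Con 2). Hspb1, a small heat shock protein, was at 22.7, 17.96, 21.3 and 25.7 CPM and then 30.2 to 217 CPM (median 76.5; log2 change 2.17 ± 0.46, adjusted p = 0.00433). Of 18 listed Paneth cell genes 14 were in the deposited counts, with 2 higher and 1 lower (1 and 1 without KI_Con 1 and 2). Without KI_Half 2, 6 were higher. Mmp7, the protease that activates defensins, was at 3.96, 5.52, 2.74 and 5.65 CPM and then 10.1 to 21.4 CPM (median 14.8; log2 change 1.73 ± 0.26, adjusted p = 8.54e-04). Trpm5, an ion channel of tuft cells, was at 18.5, 20.9, 17.8 and 16.9 CPM and then 8.52 to 15.3 CPM (median 12.4; log2 change -0.58 ± 0.15, adjusted p = 0.0103), in a list where 1 of 12 rose and 3 fell (0 and 0).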
